A study of Mus musculus with 47 samples.

Results

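Livers of Bmal1-/- and wild-type mice taken at ZT14, early in the dark phase, were compared for nucleosome signal around the binding sites of CLK:BMAL1 (zeitgeber time, ZT, counts hours after lights on). The comparison takes every library labelled ZT14, 8 of the 47 in the series, each from 1 mouse by the series' design text. Each library holds 27 of the 1269 deposited profiles. The Bmal1-/- group was replicates 5, 8, 9 and 10, and the wild-type group was replicates 11, 12, 26 and 27. All 8 were adult C57BL/6 mice by the labels, kept in 12 h light and 12 h dark, and the same liver protocol is given for both genotypes: crosslinking in 1% formaldehyde, purified nuclei, digestion with micrococcal nuclease (MNase) and sequencing of fragments of about 1 nucleosome. The labels do not say how the Bmal1 allele was disrupted or in which cells. The signal is averaged over peaks in whole liver, so neither the Bmal1 gene nor any liver marker could be checked, and single peaks and genes were not analysed here.

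The transcription factor at the head of the circadian clock is a dimer of BMAL1 and CLK (CLOCK). The dimer binds E-box motifs in promoters and enhancers of clock genes and of many liver genes, and in wild-type liver its binding is known to be strongest during the day and weak in the early night. Wrapping of DNA around histones hinders the binding of many factors, and MNase digests the linker DNA that histones do not protect, so a dip in MNase signal marks DNA that was seldom covered by a nucleosome-sized particle in the cells sampled.

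The sites were 3217 ChIP-seq peaks (mm9), with 583 (18.1%) at transcription start sites (TSS), 1412 (43.9%) in introns, 6.56% in the rest of gene bodies, 9.14% between genes within 10 kb of one and 22.3% between genes farther away. Each profile is the mean signal over 1 set of peaks at 300 positions, 10 bp apart, in a window of 3000 bp. The 27 sets are all peaks, 10 deciles of the peak list, the classes, and subsets named as the top of these. A further set, gene body peaks outside introns, was obtained by subtraction, which makes 28. The sets overlap, so their results are not independent. Relative signal is the signal in percent of the mean beyond 1000 bp from the middle of the same profile. Relative central signal is its mean within 150 bp of the middle, a stretch close to the median peak width of 309 bp, and 100 minus that value is the depth of the trough.

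Relative depth, set to 1 in the shallowest library (Bmal1-/- replicate 5), averaged 1.29 ± 0.128 for wild-type mice and 1.23 ± 0.232 for Bmal1-/- mice (SD, n = 4 each; exact permutation p = 0.714). This depth was inferred from the signal, and assumes that all libraries were scaled to the same target, which the labels do not state. About 29306 to 43382 fragments covered a central position summed over all peaks, a counting error of 0.48% to 0.584%, and 697 to 1092 in the smallest set of 74 peaks, an error of 3.03% to 3.79%. These errors cover counting only. Bmal1-/- replicate 9 had the highest relative central signal of the Bmal1-/- mice in 26 of the 28 sets, which share peaks. Values without it are therefore given beside the main differences.

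Over all peaks the trough was shallower in Bmal1-/- livers. Relative central signal was 70.5%, 67.5%, 74.7% and 68.5% in wild-type replicates 11, 12, 26 and 27, and 75.3%, 76.8%, 87.3% and 81.04% in Bmal1-/- replicates 5, 8, 9 and 10. Every Bmal1-/- mouse lay above every wild-type mouse, though replicate 5 exceeded wild-type replicate 26 by little. The means were 70.3% ± 3.17 and 80.1% ± 5.39 (SD, n = 4 each), a difference of 9.82 percentage points (exact two-sided permutation p = 0.0286, the smallest that 70 assignments allow). Mean trough depth in Bmal1-/- was 19.9 percentage points against 29.7 in wild type, or 66.9% of it. Without Bmal1-/- replicate 9 the groups still did not overlap and the difference was 7.42, with an exact permutation p of 0.0571. The p was also 0.0571 without wild-type replicate 11, 12 or 27 or without Bmal1-/- replicate 10, and over all 8 omissions the difference ran from 7.42 to 11.4.

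**Figure D1:**
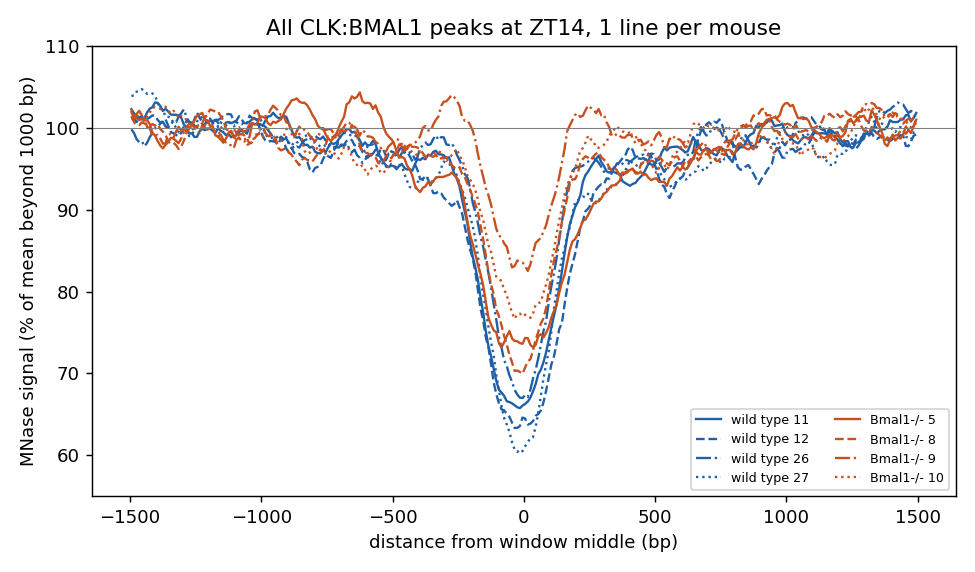
Relative signal (percent of the mean beyond 1000 bp) against distance from the window middle (bp) over all peaks, 1 line per mouse, 4 wild-type and 4 Bmal1-/- at ZT14. The genotypes are separate near the middle and their difference narrows outward, from 11.5 percentage points within 50 bp to 5.83 from 150 to 200 bp, and Bmal1-/- replicate 9 is the highest at the centre.

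The difference was largest near the middle of the window. In bands of distance from the middle, chosen after the data were seen, the genotype difference over all peaks was 11.5 percentage points within 50 bp and 10.2 from 50 to 100 bp, and in both bands the groups did not overlap (exact permutation p = 0.0286, adjusted p = 0.114 over 8 bands). It was 7.76 from 100 to 150 bp (exact permutation p = 0.0571) and 5.83 from 150 to 200 bp (exact permutation p = 0.2), with overlapping groups. From 300 bp outward the differences were 0.864 to 1.43 percentage points, and none of these bands passed the test.

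The lowest point of the all-peak trough was at 64.4% ± 2.86 of the flank for wild-type mice and 76.1% ± 5.50 for Bmal1-/- mice (SD, n = 4 each). Its width at mid-depth was 311 ± 43.9 bp for wild-type mice and 304 ± 67.9 bp for Bmal1-/- mice (SD, n = 4 each; exact permutation p = 0.886). Signal on the shoulders, from 150 to 500 bp, was 93.2% ± 1.704 and 95.9% ± 3.41 of the flank, a difference of 2.65 that did not pass (exact permutation p = 0.257). It was 1.29 without Bmal1-/- replicate 9, 4.03 without Bmal1-/- replicate 5 and 4.27 with the shoulder taken from 150 to 300 bp, none of which passed. The position of the minimum (mean -15 bp in wild type and 7.5 bp in Bmal1-/-; exact permutation p = 0.114) and the difference between left and right shoulders (exact permutation p = 0.686) did not pass the test either. No difference in its width, place or symmetry was detectable with 4 mice a group.

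Before scaling to the flank, the central signal as deposited was 4.94, 4.64, 5.12 and 4.42 in the wild-type mice and 5.36, 4.92, 5.64 and 5.42 in the Bmal1-/- mice. Replicate 8 lay below wild-type replicates 11 and 26, so the groups overlapped. The difference was 0.556 signal units (exact permutation p = 0.0857). In the flank, wild-type mice had 6.80 ± 0.235 and Bmal1-/- mice 6.67 ± 0.327 signal units (SD, n = 4 each; exact permutation p = 0.543). The separation of all 8 mice thus appeared on the relative scale and not on the deposited one.

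**Figure D2:**
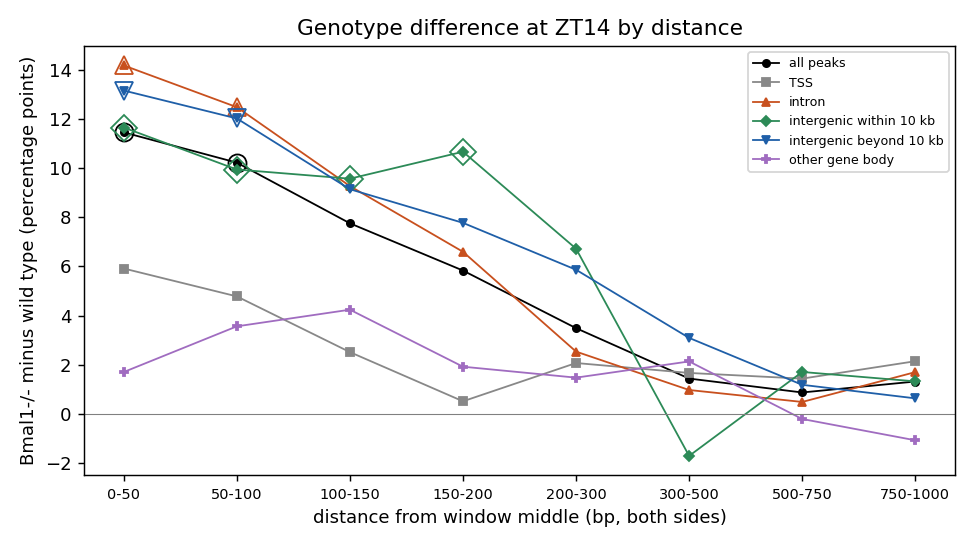
Bmal1-/- minus wild type in relative signal (percentage points) by band of distance from the window middle (bp), for all peaks and the 5 genomic classes, n = 4 mice a group. Large open markers are bands in which the groups do not overlap; the difference over all peaks falls from 11.5 within 50 bp to 1.43 from 300 to 500 bp.

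Position by position, limma called 0 of 8100 positions (27 sets of 300) higher and 0 lower in Bmal1-/- at an adjusted p under 0.05, 0% each way, and the smallest adjusted p was 0.32. At an unadjusted limma p under 0.05, 764 positions (9.43%) were higher and 1.59% were lower. These shares were 6.47% and 2.37% without Bmal1-/- replicate 9. The groups did not overlap at 463 positions (5.72%) that were higher in Bmal1-/- and at 69 (0.852%) that were lower. Of the 810 positions within 150 bp of the middle, 34.3% were higher without overlap and 0 lower. From 150 to 1000 bp these were 77 of 4590 (1.68%) and 22 (0.479%), and beyond 1000 bp 4% of 2700 and 47 (1.74%). Neighbouring positions share fragments and sets share peaks, so the counts are not of separate sites.

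In the all-peak profile alone, 28 positions were higher in every Bmal1-/- mouse, against the 5.72% of the table, and 16 of them lay within 150 bp. The largest log2 difference was 0.24, at -25 bp, on the log2(percent + 1) scale. There relative signal was 65.9%, 63.3%, 67.4% and 60.4% in wild-type mice and 73.9%, 70.4%, 83.8% and 77.2% in Bmal1-/-. A second run of 10 such positions lay in the flank, from 1205 to 1295 bp right of the middle. At 1245 bp wild-type mice averaged 97.9% ± 0.406 and Bmal1-/- mice 100.7% ± 0.903 (SD, n = 4 each), a much smaller difference than at the centre, with small spread in both groups. The flank is also part of the scale itself.

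By genomic class, the mean difference was larger at peaks between genes and in introns than at TSS peaks and elsewhere in gene bodies. The exact intervals at TSS and other gene body peaks, given below, also hold the mean differences of the other classes. At the peaks farther than 10 kb from a gene, relative central signal was 69.3%, 68.2%, 74.2% and 70.4% in wild-type mice and 78.6%, 78.1%, 88.98% and 82.2% in Bmal1-/-. The groups did not overlap, the difference was 11.5 percentage points (exact permutation p = 0.0286), and this p held with any 1 mouse left out, over differences of 9.11 to 12.7. At the peaks within 10 kb of a gene the wild-type values were 74.5%, 76.5%, 75.9% and 66.8% and the Bmal1-/- values 79.3%, 82.7%, 91.9% and 81.4%, again without overlap, and the difference was 10.4 (exact permutation p = 0.0286; 0.0571 without wild-type replicate 27, which was the lowest). Without Bmal1-/- replicate 9 it was 7.72 (exact permutation p = 0.0286). In this class the groups were separate in 4 bands, out to 200 bp, with differences of 9.58 to 11.7 percentage points.

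Intron peaks, the largest class, gave 71.8%, 67.5%, 78.4% and 71.4% in wild-type mice and 78.1%, 81.2%, 91.8% and 85.9% in Bmal1-/-. The groups overlapped by 1 pair, Bmal1-/- replicate 5 lying just under wild-type replicate 26. The difference was 11.99 percentage points (exact permutation p = 0.0571; 9.46 and p = 0.0857 without Bmal1-/- replicate 9), and mean trough depth in Bmal1-/- was 56.8% of that in wild type. Within 50 bp of the middle the intron groups did not overlap, at a difference of 14.2 (exact permutation p = 0.0286).

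TSS peaks had the deepest trough of the classes in both genotypes; at active start sites a nucleosome-depleted stretch is well known. Relative central signal was 60.9%, 59.7%, 62.4% and 58.5% in wild-type mice and 60.7%, 59.3%, 71.6% and 67.6% in Bmal1-/-. Replicates 5 and 8 fell among the wild-type values and replicates 9 and 10 above all of them. The difference was 4.402 percentage points (exact permutation p = 0.286; exact interval of the shift -3.08 to 13.1, level 97.1%), and 2.14 without Bmal1-/- replicate 9. No TSS position of the 30 within 150 bp separated the groups. The other gene body peaks gave 84.6%, 74.2%, 80.3% and 70.9% in wild-type mice and 77.1%, 80.4%, 86.6% and 78.5% in Bmal1-/-. Their difference was 3.17 (exact permutation p = 0.371, exact interval -7.43 to 15.7 at the same level). This value was 0.967 without wild-type replicate 27, 1.18 without Bmal1-/- replicate 9, 2.08 without wild-type replicate 12 and 5.52 without wild-type replicate 11, none of which passed.

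**Figure D3:**
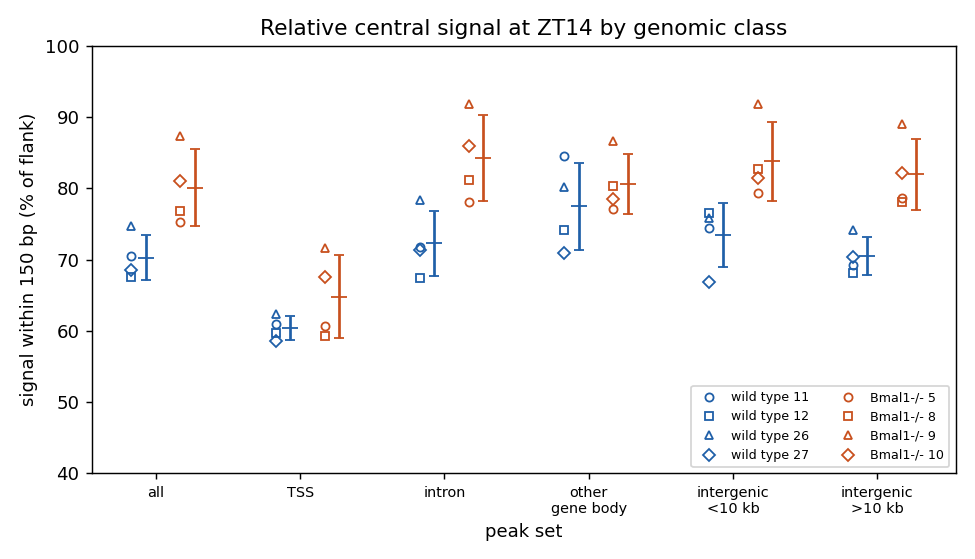
Relative central signal (percent of flank) per mouse by genomic class of the peaks, with mean ± SD of 4 mice a genotype. The groups are separate at both intergenic classes and interleave at TSS peaks, where Bmal1-/- replicates 5 and 8 sit at 60.7% and 59.3%.

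Whether the genotype difference itself differed between classes was tested within mice. Intron minus TSS central signal was 10.9, 7.75, 16.02 and 12.9 percentage points in wild-type mice and 17.5, 21.8, 20.3 and 18.3 in Bmal1-/-, with every Bmal1-/- mouse above every wild-type mouse. The mean gap was 11.9 ± 3.47 and 19.5 ± 1.96 (SD, n = 4 each), a difference of 7.59 (exact permutation p = 0.0286, adjusted p = 0.0857 over 3 contrasts of this kind). The gap of replicate 9, 20.3, was not the highest, and without it the difference was 7.32 (exact permutation p = 0.0571, as without any other single Bmal1-/- mouse). Of all 10 pairs of classes, added after the data were seen, peaks beyond 10 kb minus TSS (7.05) and other gene body minus intron (-8.82) also reached an exact permutation p of 0.0286, and the adjusted p of each was 0.0952. The 2 intergenic classes differed from each other by 1.05 (exact permutation p = 0.743; exact interval -8.18 to 9.10).

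All 28 sets had a higher mean in Bmal1-/-, and in 11 (39.3%) the groups did not overlap at an exact permutation p of 0.0286, each with an adjusted p of 0.0727, so 0 passed after adjustment. An exact permutation p under 0.05 was reached in 6 sets without Bmal1-/- replicate 9. Without wild-type replicates 11, 12 or 27 it was reached in 7, 6 or 3. These counts are of the test alone, since groups that do not overlap stay separate when a mouse is left out. The set with the largest difference was the top 400 intron peaks, where wild-type mice had 71.7%, 67.3%, 81.7% and 67.99% and Bmal1-/- mice 78.7%, 84.7%, 96.5% and 89.5%. Replicate 9 had almost no trough left there. The difference was 15.2 (exact permutation p = 0.0571), with wild-type replicate 26 inside the Bmal1-/- range, and mean depth in Bmal1-/- was 45.5% of that in wild type.

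The smallest difference was that of the top 200 TSS peaks, with 62.2%, 63.4%, 65.5% and 61.8% in wild-type mice and 63.8%, 56.2%, 74.01% and 65.9% in Bmal1-/-. Here replicate 8 was the lowest of all 8 mice and replicate 9 the highest. The difference of 1.74 (exact permutation p = 0.629) changed sign to -1.27 without replicate 9. Top subsets were then set against the rest of their class, a comparison added after the data were seen. The remaining 1012 intron peaks differed by 10.7 between genotypes without overlap (exact permutation p = 0.0286), and the top minus rest difference of 4.43 did not pass (exact permutation p = 0.0571, adjusted p = 0.229 over 4 classes). For TSS peaks that difference was -4.04 (exact permutation p = 0.2), and neither difference exceeded the spread between mice.

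Along the peak list, for which the labels name no ranking, no trend in the genotype difference over the deciles was detectable. In the first decile relative central signal was 71.7%, 67.7%, 72.6% and 66.3% in wild-type mice and 76.99%, 74.7%, 92.3% and 77.4% in Bmal1-/-. The groups did not overlap, with a difference of 10.8 (exact permutation p = 0.0286), which was 6.79 without replicate 9 (exact permutation p = 0.0571). Without any single wild-type mouse it was 9.68 to 11.8 (exact permutation p = 0.0571 each). In the last decile the values were 67.4%, 69.9%, 75.04% and 69.2% against 74.8%, 76.1%, 88.5% and 81.9%. Replicate 5 lay just under wild-type replicate 26, and the difference was 9.94 (exact permutation p = 0.0571), or 7.202 without replicate 9 (exact permutation p = 0.0857) and 11.8 without replicate 5 (exact permutation p = 0.0286).

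The groups did not overlap in 5 of the 10 deciles, and the differences ran from 7.75 to 12.1. Replicate 9 was the highest Bmal1-/- mouse in 8 deciles and replicate 10 in the other 2, and replicate 26 was the highest wild-type mouse in all 10. The lowest Bmal1-/- mouse was replicate 5 in 6 deciles and replicate 8 in 4, so the highest mouse of each genotype recurred more than the lowest. The slope of relative central signal over the deciles was -0.204 ± 0.298 percentage points per decile for wild-type mice and -0.319 ± 0.122 for Bmal1-/- mice (SD, n = 4 each; exact permutation p = 0.6; exact interval of the difference -0.618 to 0.346).

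**Figure D4:**
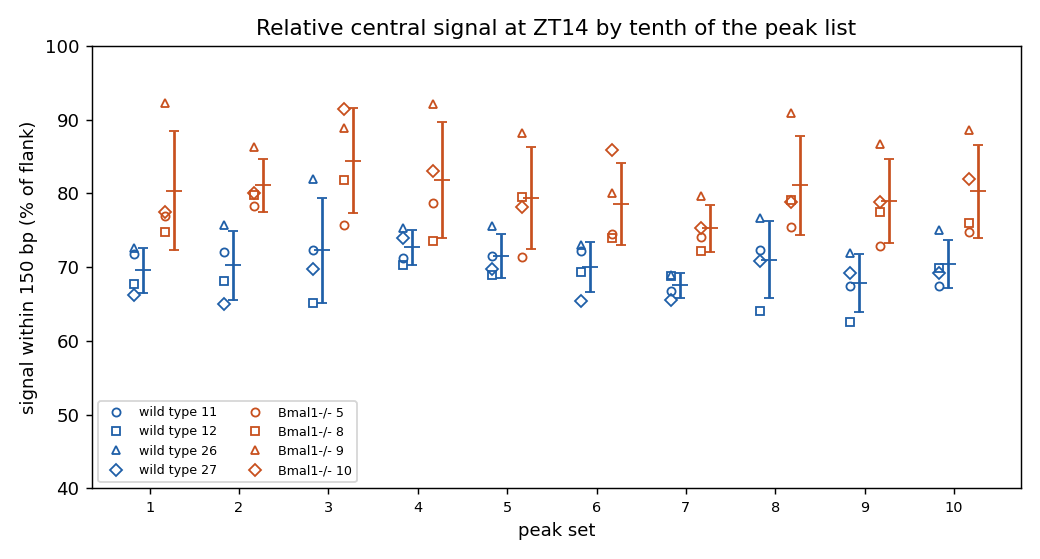
Relative central signal (percent of flank) per mouse in each decile of the peak list, with genotype means. Differences lie between 7.75 and 12.1 percentage points, and replicate 9 is the highest Bmal1-/- mouse in 8 of 10 deciles.

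Set against the other times of day, the genotype difference over all peaks at ZT14 was smaller than at ZT02 and ZT06 and larger than at the other 3 times. In the first decile, with every library taken, it was larger than at ZT18 alone. Over all peaks Bmal1-/- minus wild type, in percentage points, stood at 9.82 at ZT14; earlier in the cycle it was 10.5 (ZT02), 12.0 (ZT06) and 9.05 (ZT10), and later 3.57 (ZT18) and 8.14 (ZT22). In the first decile it was 14.3, 18.6 and 15.9 at ZT02, ZT06 and ZT10, then 10.8 at ZT14, 1.86 at ZT18 and 12.0 at ZT22. At ZT22 there are 3 Bmal1-/- libraries, since replicate 8 has none. Without replicate 8 the first-decile difference at ZT14 was 12.7, above that at ZT22. The smaller difference in the first decile at ZT14 came with higher wild-type values: all 4 wild-type mice at ZT14 (66.3% to 72.6%) lay above all 4 at ZT10 (54.5% to 65.1%) and at ZT06 (51.7% to 60.3%), with means higher by 10.3 and 13.3 percentage points. In Bmal1-/- the means were higher by 5.17 and 5.45, and the mice of the different times overlapped.

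Whether the ZT14 difference departs from its mean at 4 other times was tested over the 4 replicate numbers of each genotype. The difference was taken between libraries that carry the same number. The labels do not say what a number shares across times. Libraries of the same number were more alike than those of different numbers, more so in Bmal1-/-, but whether numbers pair libraries was not tested. The mean differences below do not depend on that matching, whereas their SD, p and interval do. ZT14 minus the mean of ZT02, ZT06, ZT10 and ZT18 averaged 1.82 ± 2.87 over all peaks for the wild-type series and 2.86 ± 2.76 for the Bmal1-/- series (SD, n = 4 each), a difference of 1.04 (exact permutation p = 0.714; exact interval -5.64 to 6.32). Leaving out 1 number gave 0.0812 (without Bmal1-/- 9) to 2.41 (without wild-type 26), and none passed. For the first decile it was 6.59 ± 2.65 and 4.70 ± 6.04, a difference of -1.89 (exact permutation p = 0.543; exact interval -10.4 to 9.17). A departure of the genotype difference at ZT14 from its mean at these 4 times was thus not detectable. In both sets the differences at single times lay on both sides of that at ZT14, so their mean can hide opposite departures. Single times were not tested against ZT14. The intervals allow several percentage points either way over all peaks, and more in the first decile. In wild-type replicate 26 and Bmal1-/- replicates 8 and 9 the ZT14 value over all peaks was the highest of the libraries with that number. In replicate 26 it barely exceeded ZT18 (74.66% against 74.63%), and replicate 8 has no ZT22 library.

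**Figure D5:**
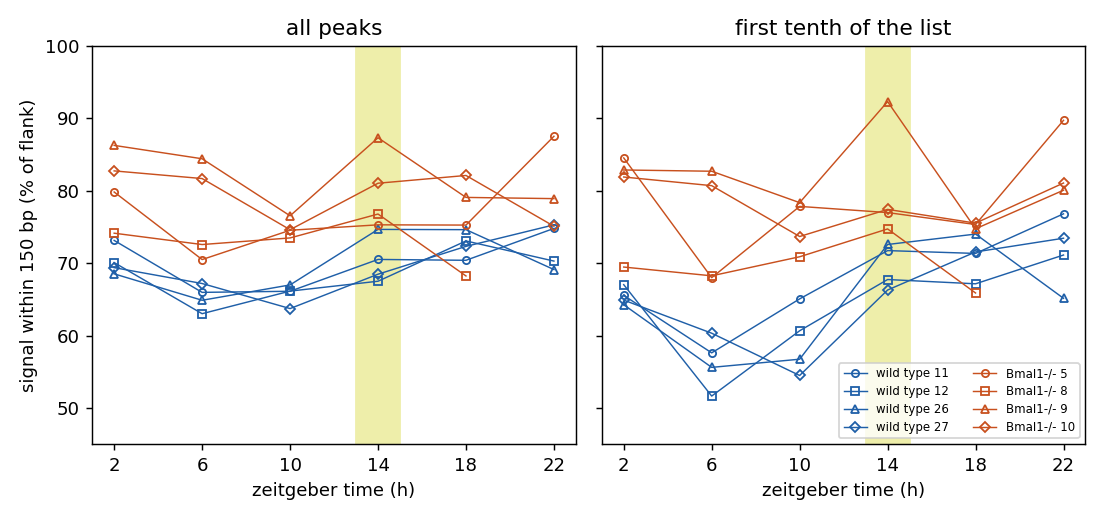
Relative central signal (percent of flank) of each replicate series at 6 zeitgeber times, for all peaks and for the first decile of the list, with ZT14 shaded. At ZT14 the 4 Bmal1-/- series lie above the 4 wild-type series in both sets, and Bmal1-/- replicate 8 has no library at ZT22.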

How the data were processed

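MNase-seq libraries of 8 livers at ZT14, 4 a genotype, were used. CASAVA 1.7 and Bowtie, with the mm9 build, are listed in the submitters' processing notes. The deposited signal is scaled coverage that the authors averaged over peak sets; the scaling target, fragment length and duplicate handling are not stated in the labels. A second deposited table lists the peaks with positions and other annotation such as the class. Group membership comes from the sample titles and the series' design text.

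Relative signal was computed as described, with 300 positions of 10 bp. Genotypes were compared by exact two-sided permutation of the difference of means (70 assignments, smallest p 0.0286) with Benjamini-Hochberg adjustment, and by limma 3.58.1 in R 4.3.3 (eBayes with trend, log2(relative signal in percent + 1), 8100 positions). Both were run on simulated independent normal values, as a check of the code only. That setting leaves out the sharing of fragments between positions and of peaks between sets. The p-values set the genotype difference against the variation between mice, in limma with variances moderated across positions. Those for ZT14 against other times also depend on matching by replicate number. Depth was recovered from the worth of 1 fragment in the sets of 74 and 100 peaks, where 100% of values were whole within 0.1 of that worth. Sets given in every mouse are all peaks, the first and last decile, the classes, and the sets with the largest and smallest difference. Members and lists were chosen with earlier results of these data known. Alternatives changed the centre, flank, scaling, pseudocount, filter and mice. The genotypes share no replicate numbers. Across times, residuals of the same series correlated at a median r of 0.131 in wild type and 0.509 in Bmal1-/-, with pairs below 0.1 in both. Between different series the median r was -0.097 in wild type and -0.253 in Bmal1-/-. Libraries of the same number were thus more alike, more so in Bmal1-/-. Whether the numbers pair samples was not tested. The contrast of ZT14 with other times still subtracts libraries of the same number, as planned. No sequence is printed because the reference build differs from mm9.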

Additional observations from a re-analysis of the deposited data

Results flagged for a closer look

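Of 68 groups of 4 mice examined, 3 held a mouse whose distance to the next exceeded Dixon's critical value for its share of the group's range; chance alone marks about 5% of groups. Bmal1-/- replicate 9 was at 90.9% in the set of the top 400 peaks, where the next Bmal1-/- mouse was at 77.5%, and at 92.3% in the first decile of the list, where the next was at 77.4%. These 2 sets share peaks. Wild-type replicate 27 was at 59.1% in the top 100 peaks within 10 kb of a gene, where the next wild-type mouse was at 81.6%, and without it the genotype difference in that set was 3.96 in place of 9.87 percentage points (exact permutation p = 0.143 and 0.0857).

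The genotype difference was larger by 7.59 percentage points at intron peaks than at TSS peaks, by the exact permutation test of that difference within mice (p = 0.0286). It did not pass after adjustment (adjusted p = 0.0857). Without any single Bmal1-/- mouse the exact permutation p was 0.0571.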

How the results depend on the processing

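With the centre taken within 50 bp, 18 sets passed the exact test, also after adjustment (18 against 0), since more sets at the smallest possible p lower the adjusted p. With the centre within 250 bp, 5 sets passed, the all-peak difference was 7.87 and the intron against TSS difference 6.19 (exact permutation p = 0.0571 for both). Other flanks and the window median kept the all-peak call (9.42 to 9.76). Leaving out 1 mouse gave an all-peak difference of 7.42 to 11.4, 3 to 12 sets passing, an intron against TSS difference of 6.21 to 8.97, a slope difference of -0.216 to 0.0178, a width difference of -39.7 to 11.3 bp, a left minus right shoulder difference of -0.112 to 0.765 and a shift of the minimum of 16.7 to 30 bp (30 without Bmal1-/- replicate 8, exact permutation p = 0.0286). With the profile averaged over 11 positions the shift was 2.5 bp (exact permutation p = 1). The ZT14 against other times difference ran from 0.0812 to 2.41 and the shoulder difference from 1.29 to 4.03. Limma called 0 positions under each alternative over all peak sets, while the 300 positions of the all-peak set tested alone gave 13 higher and 0 lower. At an unadjusted p under 0.05 the shares were 6.198% higher and 0.58% lower on the signal as deposited, 4% and 1.745% without the 25% lowest positions, and 6.47% to 12.1% and 0.815% to 2.67% with 1 mouse left out. The filter of lowest positions goes by mean deposited signal. Over all peaks that signal is lowest in the trough, where the genotype difference was largest. Over 47 libraries, the replicate block and no replicate block each gave 0 higher and 0 lower positions (10.1% and 9.88% higher, 1.41% and 1.46% lower, at an unadjusted p under 0.05), and likewise 0 for the change of the genotype difference at ZT14 (2.47% and 1.79% higher, 1.704% and 1.49% lower, unadjusted). With 4 mice a group no exact p below 0.0286 can be reached, and signal averaged over peaks cannot show which peaks differ.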
